A study of Mus musculus with 16 samples.

Results

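The genes described here are 10 genes of glucose uptake and glycolysis, Slc2a1, Hk2, Gpi1, Pfkl, Pfkp, Pfkfb3, Aldoa, Pgk1, Eno1 and Ldha, taken by symbol from a count table of 20295 mouse genes. All 10 were found, and all 10 were among the 12786 genes that passed a filter on low counts and were tested. RNA was sequenced from BAT-LgT cells, 1 immortalized line of brown preadipocytes, at day 7 of differentiation into adipocytes. The vehicle group (2 samples, numbered 2 and 3) and the SR-3420 group (2 samples, numbered 1 and 3) received no inhibitor. The triacsin C groups (5 µM, with and without SR-3420, 3 samples each) received a blocker of the long-chain acyl-CoA synthetases, which activate fatty acids. The etomoxir groups (50 µM, with and without SR-3420, 3 samples each) received a blocker of carnitine palmitoyltransferase 1, through which activated fatty acids enter mitochondria. The inhibitors were given for 1 h before a stimulation of 3 h with SR-3420, a ligand of ABHD5 that starts lipolysis by adipose triglyceride lipase without a hormone. The labels give SR-3420 at 10 µM, while the study's own text gives a higher dose for this experiment. The samples of a group come from independent experiments according to the study. Library totals ran from 9452861 counts in triacsin C sample 1 to 25670624 in etomoxir with SR-3420 sample 1, with a median of 13602886 over the 16 samples.

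Glucose enters cells through facilitative transporters, is trapped by hexokinase as glucose 6-phosphate and is carried by a preparatory phase to fructose 1,6-bisphosphate and its split by aldolase. A payoff phase then makes ATP and pyruvate, and lactate dehydrogenase turns pyruvate into lactate while restoring NAD+. Brown adipocytes take up much glucose when stimulated to make heat, in addition to burning the fatty acids that lipolysis releases, and their glucose transport runs through GLUT1, which is present at the cell surface without insulin, and GLUT4, which insulin recruits.

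The labelled cell type was checked against 12 brown adipocyte and adipocyte markers, 11 of them tested. Their summed level, in CPM (counts per 1000000 counts of the library, its size scaled by edgeR's trimmed mean of M values), was 12280 and 11590 in the 2 vehicle samples, and Fabp4 was their most abundant gene with 38922 to 121599 counts per sample. Adipoq (8979 to 49673 counts), Plin1 and Pparg (1057 to 4230 counts) were present in every sample. Of the markers tied to brown fat, Cox8b had 430 to 2601 counts per sample, Ppargc1a 207 to 1302, Ebf2 167 to 1263, Cidea 100 to 599, Prdm16 77 to 694 and Elovl3 85 to 312, while Ucp1 had 5 to 57 and Dio2 0 to 2.

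The summed level of the adipocyte markers, led by Fabp4 with Adipoq next, was 8745 and 8554 CPM in the 2 samples with SR-3420 alone. It was 13100, 13760 and 13820 CPM with triacsin C and 4935, 5104 and 5547 with triacsin C plus SR-3420. With etomoxir it was 11900, 11140 and 12720 CPM, and with etomoxir plus SR-3420 it was 6032, 4790 and 8094. In each pairing every SR-3420 sample lay below every sample without it. Gene by gene the markers were mixed. By edgeR's quasi-likelihood test at an adjusted p under 0.05, 2 of the 11 tested markers fell with SR-3420 alone (Cox8b and Pparg), where 4.75% of all tested genes rose and 2.79% fell, and 5 of the 11 log2 fold changes were above 0, with a median of -0.04. With triacsin C present 5 fell and 2 rose (Prdm16 and Ebf2), where 17.3% of all tested genes rose and 19.7% fell, and the median was -0.43. With etomoxir present 5 fell, where 12.5% of all tested genes rose and 12.8% fell, and the median was -0.46. Those shares of all genes come to 1.9 risen and 2.2 fallen of 11 genes with triacsin C and to 1.4 and 1.4 with etomoxir. Triacsin C alone against vehicle gave 4 that fell (Ppargc1a, Prdm16, Ebf2 and Pparg), where 4.77% of all tested genes rose and 6.94% fell. The call of Pparg with SR-3420 alone was lost without any 1 of the 4 samples (adjusted p from 0.0683 to 0.242), and that of Cox8b without vehicle sample 2 (0.133), SR-3420 sample 1 (0.098) or SR-3420 sample 3 (0.071).

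Markers of preadipocytes and fibroblasts (7 genes, all tested, led by Col1a1) summed to 1626 and 1413 CPM in vehicle and to 3651 and 2656 with SR-3420. With triacsin C the sums were 2296, 2032 and 1742 CPM without SR-3420 and 4252, 3536 and 2812 with it. With etomoxir they were 2002, 1438 and 943.8 CPM without SR-3420 and 4312, 3115 and 2109 with it. These sums lay higher with SR-3420 in every pairing. With SR-3420 alone edgeR called 0 of the 7 genes (3 at an unadjusted p under 0.05, as had 21.8% of all tested genes, and 2 by DESeq2), while 3 rose with triacsin C present and 5 with etomoxir present (6 and 6 by DESeq2), where the shares of all genes come to 1.2 and 0.9 risen of 7.

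Markers of macrophages (5 genes, 3 tested, led by Cd68) summed to 13.82 and 11.71 CPM in vehicle, 16.8 and 13.9 with SR-3420, 22.9, 26.6 and 24.35 with triacsin C, and 14.28, 15.26 and 12.76 with triacsin C plus SR-3420. With etomoxir they summed to 13.63, 13.82 and 10.69 CPM, and to 13.89, 9.786 and 9.362 when SR-3420 was added. Cd68 rose by 1.92 ± 0.269 (SE; edgeR, adjusted p = 0.000366) with triacsin C against vehicle and fell by 1.29 ± 0.225 (adjusted p = 0.000651) with SR-3420 in triacsin C, and Cd14 fell by 0.71 ± 0.194 (adjusted p = 0.0163) with SR-3420 in etomoxir, a call lost without any 1 of 4 samples (adjusted p from 0.0516 to 0.0736). The response of Cd68 to SR-3420 was lower with triacsin C than without an inhibitor by a log2 difference of -1.98 ± 0.362 (adjusted p = 0.0139), a call lost without vehicle sample 3 (0.096) or SR-3420 sample 1 (0.0882). Markers of endothelium (4 genes, 1 tested, led by Kdr) summed to 0.86 to 2.21 CPM in the 8 samples without SR-3420 and to 1.71 to 3.58 in the 8 with it. Kdr, the tested one, rose with SR-3420 by 0.96 ± 0.306 (adjusted p = 0.0246) with triacsin C, a call lost without any 1 of 4 samples (adjusted p from 0.0555 to 0.106), and by 1.28 ± 0.298 (adjusted p = 0.00681) with etomoxir. Markers of muscle (5 genes, 2 tested, led by Acta1) summed to 2.65 to 12.4 CPM per sample, and edgeR called 0 of the 2 in each SR-3420 comparison (1 each at an unadjusted p under 0.05, 0 by DESeq2). Ptprc had 0 to 16 counts, Pecam1 0 to 13 and Myf5 0 to 1. The part that these marker changes have in the results on the 10 genes was not tested. In bulk RNA, a changed number of cells of a type and a changed level of the marker RNA within the same cells cannot be told apart.

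Levels between the 10 genes were compared per kilobase of the length over which reads were counted. In vehicle, Aldoa was highest at 954 ± 243 CPM per kilobase (SD, n = 2), and Ldha followed at 392 ± 105. Next came Pfkl at 141 ± 56.1, Gpi1 at 105 ± 30.5 and Slc2a1 at 62.4 ± 19.5. Pfkfb3 stood at 58.5 ± 4.35, Hk2 at 36.8 ± 7.41 and Eno1 at 29.2 ± 12.5. The lowest were Pgk1 at 18.1 ± 2.04 and Pfkp at 8.92 ± 1.44. Neighbours in this order that did not differ beyond their spread were Pfkl and Gpi1, Gpi1 and Slc2a1, Slc2a1 and Pfkfb3, Hk2 and Eno1, and Eno1 and Pgk1. With SR-3420 alone Slc2a1 stood at 299.6 ± 65.6 CPM per kilobase (SD, n = 2), above Gpi1 at 156 ± 22.1 by more than their spread and within the spread of Pfkl at 351 ± 142. Over all 16 samples Aldoa lay at percentile 99.8 of the tested genes by this level, Ldha at 99.4, Pfkp at 50.8 and the others between 71.8 and 97.3. Counts on total library size exchanged only the places of Slc2a1 and Pfkl in the order over all samples.

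A few levels carry limits of the counting. Reads at the same position were kept once, which bounds the counts of short abundant genes. Counts per base reached 14.7 for Ldha, and a higher value for Aldoa, in their deepest sample, against 0.295 for the median of all tested genes, and how far the removal lowered them was not tested. Eno1 was counted over only 127 bases and gave 27 to 109 counts per sample. Stretches of at least 95% identity elsewhere in the genome covered 95.7% of the Pgk1 transcript, in 3 copies, and 85.6% of the Eno1 transcript, in 4 copies, so that reads of these genes may not all be placed uniquely. The other 8 genes had no such copy.

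Stimulation of lipolysis was asked about in 3 comparisons of SR-3420 with its own control, in the absence of an inhibitor, with triacsin C or with etomoxir, the inhibitors asking whether activation or oxidation of fatty acids is needed. Without an inhibitor, Slc2a1, Hk2, Pfkp and Ldha, 4 of the 10 genes, rose with SR-3420 by edgeR's quasi-likelihood test at a Benjamini-Hochberg adjusted p under 0.05, where 4.75% of the 12786 tested genes rose and 2.79% fell. All 10 fold changes were above 0, and their median log2 fold change was 0.79 beside -0.0038 for all tested genes. With triacsin C present, Slc2a1, Hk2, Pfkp and Pgk1 rose and Pfkfb3 fell, 4 and 1 of the 10, where 17.3% of all tested genes rose and 19.7% fell. The median log2 fold change was then 0.30 beside 0.02 for all tested genes. With etomoxir present, Slc2a1, Hk2, Pfkp, Pgk1 and Ldha, 5 of the 10, rose, where 12.5% of all tested genes rose and 12.8% fell, and the median was 0.80 beside 0.01. As the 10 genes were chosen with earlier results of these data known, these counts beside the shares of all genes are a description only.

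Across all tested genes, 607 rose and 357 fell with SR-3420 alone, while scaling by total counts, an alternative chosen after the data were seen, turned this split to 467 and 572 and moved the median of all genes by -0.11 on the log2 scale. With etomoxir present, total counts turned the split from 1597 risen and 1637 fallen to 1328 and 2029. With SR-3420 alone, the same 4 genes of the 10 passed under that scaling. Without vehicle sample 3, 306 genes passed in place of 964, and 2 of the 10 genes.

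**Figure D1:**
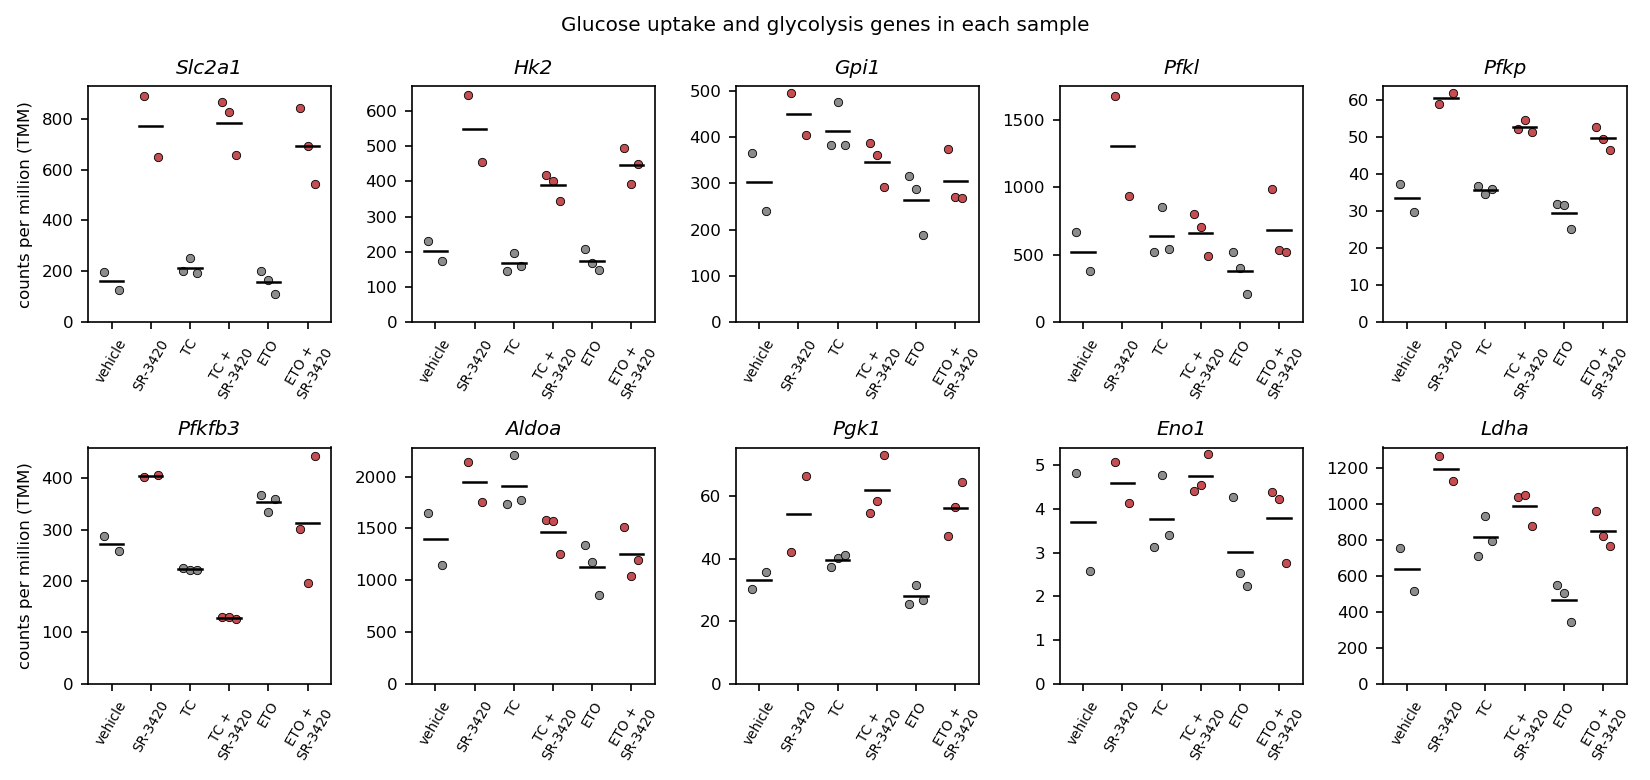
Level of each of the 10 genes in each of the 16 samples, in CPM after scaling, by treatment group. Each point is a sample, red with SR-3420 and grey without, each line is the group mean, and each panel has its own axis from 0. Slc2a1 and Hk2 separate by SR-3420 in every pairing, from at most 251 CPM without SR-3420 to at least 545 with it for Slc2a1.

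Slc2a1 encodes GLUT1, the transporter of basal glucose uptake, and is listed as NM_011400 at chr4:118781350-118809934 on the plus strand of mm9, with a counted length of 2572 bases and 10 exons in its longest coding transcript in GENCODE vM1. It was measured at 196 and 125 CPM in the 2 vehicle samples and at 889.8 and 651 with SR-3420. With triacsin C it stood at 199, 251 and 193 CPM, and with triacsin C plus SR-3420 at 865, 827 and 656. With etomoxir it stood at 199, 165 and 112 CPM, and with etomoxir plus SR-3420 at 842, 693 and 545. All 8 samples with SR-3420 were higher than all 8 without it, as held for 6.26% of all tested genes and for Slc2a1, Hk2, Pfkp and Pgk1 among the 10. By edgeR's quasi-likelihood test the log2 fold change was 2.26 ± 0.31 (SE; Benjamini-Hochberg adjusted p = 0.000815) without an inhibitor. It was 1.87 ± 0.25 (adjusted p = 9.42e-05) with triacsin C and 2.13 ± 0.252 (adjusted p = 8.18e-05) with etomoxir. By group mean the order was triacsin C plus SR-3420 (783 ± 111 CPM, SD, n = 3), SR-3420 (771 ± 169, n = 2), etomoxir plus SR-3420 (693 ± 149, n = 3), triacsin C (214 ± 32.1, n = 3), vehicle (160.4 ± 50.03, n = 2) and etomoxir (159 ± 44.1, n = 3). Neighbours in that order differed beyond their spread only between etomoxir plus SR-3420 and triacsin C.

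ACGTG and GCGTG are the core letters of the hypoxia response element, and no motif was searched beyond these and CACGTG. The 250 bases before each listed start site were searched for them on the mm9 (NCBIM37) genome, on either strand. A match there is a description of letters, and binding was not measured. The sequences of the 6 genes that passed a test are printed where each gene is described, 5′ to 3′ on the gene's strand in lower case, with each match in capitals, where a match on the other strand reads CACGT or CACGC. Of the 20292 promoters read, 18.2% held ACGTG and 35.5% held GCGTG, and 45.7% held at least 1 of them. Among the 12783 promoters of tested genes these shares were 21.6%, 45.7% and 56.5%. Of the 10 genes, 5 held ACGTG, 4 held GCGTG and 8 held either, all but Gpi1 and Aldoa. Of the 250 bases searched, however, 167 for Gpi1, 193 for Aldoa and 245 for Eno1 are annotated as exon. For these genes a match, or the lack of one, may therefore not describe the promoter. CACGTG, which contains ACGTG on each strand, was in 6.92% of all promoters and 8.32% of those tested, and in that of Ldha among the 10 genes. The median GC content was 56.4% over all promoters, 60.4% over tested genes and 64.6% over the 10 genes. The window of Slc2a1, shown at chr4:118781100-118781318 on the plus strand and ending at its last match because an annotated exon begins in the window, held 1 ACGTG and 1 GCGTG, and 3 of the printed bases are annotated as exon.
Slc2a1: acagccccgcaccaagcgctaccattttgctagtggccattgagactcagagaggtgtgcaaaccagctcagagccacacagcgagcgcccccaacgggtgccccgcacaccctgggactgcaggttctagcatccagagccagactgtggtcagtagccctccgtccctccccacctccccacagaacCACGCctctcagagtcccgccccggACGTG

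Hk2 encodes hexokinase 2, which phosphorylates glucose as it enters, and is listed as NM_013820 at chr6:82675021-82724448 on the minus strand, with a counted length of 5511 bases and 18 exons. It was measured at 232 and 174 CPM in vehicle and at 646 and 454 with SR-3420. In triacsin C samples it stood at 146, 196 and 158 CPM, and at 418 and 401 and 345 when SR-3420 was added. With etomoxir it stood at 206 and 167 and 148 CPM, and at 493, 392 and 450.5 when SR-3420 was added. As with Slc2a1, every sample with SR-3420 was above every sample without it. The log2 fold change was 1.44 ± 0.227 (SE; edgeR, adjusted p = 0.00201) without an inhibitor, 1.22 ± 0.185 (adjusted p = 0.00023) with triacsin C and 1.36 ± 0.185 (adjusted p = 0.000213) with etomoxir. By group mean the order was SR-3420 (549.6 ± 136 CPM, SD, n = 2), etomoxir plus SR-3420 (445 ± 50.7, n = 3), triacsin C plus SR-3420 (388 ± 38.6, n = 3), vehicle (203 ± 40.8, n = 2), etomoxir (174 ± 29.9, n = 3) and triacsin C (167 ± 25.9, n = 3), with neighbours apart beyond their spread only between triacsin C plus SR-3420 and vehicle. Fitted with only the vehicle and SR-3420 samples, the call without an inhibitor was lost (adjusted p = 0.114). The window before its start, chr6:82724449-82724698 on the minus strand, held ACGTG at 2 places.
Hk2: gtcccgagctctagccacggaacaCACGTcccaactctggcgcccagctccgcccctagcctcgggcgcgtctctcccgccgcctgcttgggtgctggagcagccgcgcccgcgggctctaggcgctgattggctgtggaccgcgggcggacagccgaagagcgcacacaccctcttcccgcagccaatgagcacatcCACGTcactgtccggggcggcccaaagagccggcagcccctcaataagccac

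Gpi1, the isomerase of glucose 6-phosphate, is listed as NM_008155 at chr7:34986346-35015355 on the minus strand (counted length 2887, 18 exons). Its level ran from 241 to 365 CPM in vehicle and from 404 to 495 with SR-3420. It ran from 382 to 476 CPM with triacsin C and from 292 to 387 with triacsin C plus SR-3420, and from 188 to 315 with etomoxir and from 268 to 375 with etomoxir plus SR-3420. The groups did not overlap without an inhibitor, with SR-3420 the higher, and overlapped in the other pairings. None of its responses passed, the log2 fold changes being 0.57 ± 0.271 (SE; edgeR, adjusted p = 0.242), -0.25 ± 0.221 (adjusted p = 0.393) and 0.21 ± 0.221 (adjusted p = 0.538) in the order no inhibitor, triacsin C, etomoxir. Over single samples left out these ran from 0.30 to 0.90, from -0.34 to -0.14 and from 0.01 to 0.35. With a block on the replicate number in edgeR, the value without an inhibitor passed (0.56, adjusted p = 0.0435).

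Pfkl and Pfkp encode the liver and platelet forms of phosphofructokinase 1, the committed step of glycolysis. Pfkl (NM_008826, chr10:77449694-77472541, minus strand, counted length 3717, 22 exons) was measured at 671 and 376 CPM in vehicle and at 1677 and 933 with SR-3420. Under triacsin C it spanned 523 to 852 CPM without SR-3420 and 489 to 798 with it, and with etomoxir 209 to 522 without and 523 to 989 with it. The replicates of Pfkl were far apart, and its groups did not overlap without an inhibitor and, narrowly, with etomoxir. Its log2 fold changes were 1.32 ± 0.47 (SE; edgeR, adjusted p = 0.111), 0.05 ± 0.377 (adjusted p = 0.92) and 0.85 ± 0.38 (adjusted p = 0.118) for no inhibitor, triacsin C and etomoxir, none past the threshold, and the triacsin C value ran from -0.10 to 0.32 over leave-outs. By DESeq2 the value without an inhibitor passed, at an adjusted p of 0.0477, and by edgeR it was 0.84 (adjusted p = 0.554) without SR-3420 sample 1. The etomoxir value was 0.49 (adjusted p = 0.38) without etomoxir plus SR-3420 sample 1. With a block on the replicate number in edgeR, both values passed, at 1.22 (adjusted p = 0.00916) without an inhibitor and 0.90 (0.00468) with etomoxir.

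Pfkp (NM_019703, chr13:6579120-6648017, minus strand, counted length 3757, 22 exons, overlapping Pitrm1) was the lowest of the 10 genes per length. It was measured at 37.4 and 29.7 CPM in vehicle and at 59 and 62 with SR-3420. Under triacsin C it stood at 36.9, 34.6 and 36.1 CPM, and at 52.3, 54.6 and 51.4 when SR-3420 was added. With etomoxir it stood at 31.9, 31.7 and 25.1 CPM, and at 52.8, 49.5 and 46.7 when SR-3420 was added. All 8 samples with SR-3420 were above all 8 without it, with close replicates. The log2 fold change was 0.85 ± 0.152 (SE; edgeR, adjusted p = 0.00439) without an inhibitor, 0.56 ± 0.124 (adjusted p = 0.00335) with triacsin C and 0.75 ± 0.124 (adjusted p = 8e-04) with etomoxir. The call without an inhibitor was lost without vehicle sample 3 (adjusted p = 0.0682) and with only the compared groups in the fit (adjusted p = 0.204). The window before Pfkp, printed at chr13:6648036-6648267 on the minus strand up to its last match for the same reason, held GCGTG at 3 places.
Pfkp: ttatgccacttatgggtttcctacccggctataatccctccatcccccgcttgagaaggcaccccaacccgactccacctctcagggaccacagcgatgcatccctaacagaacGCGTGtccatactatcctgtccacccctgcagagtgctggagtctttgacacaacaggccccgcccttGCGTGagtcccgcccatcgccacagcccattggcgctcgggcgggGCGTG

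Pfkfb3 encodes the bifunctional enzyme that makes fructose 2,6-bisphosphate, the activator of phosphofructokinase 1, and is listed as NM_001177758 at chr2:11393058-11475556 on the minus strand (counted length 4655, 17 exons). It was measured at 287 and 258 CPM in vehicle and at 403 and 406 with SR-3420. Triacsin C samples stood at 225 and 221 and 222 CPM, and at 129.9, 130.2 and 126 when SR-3420 was added. With etomoxir it stood at 367, 334 and 360.4 CPM, and at 301 and 196 and 444 when SR-3420 was added. The samples with SR-3420 alone were above both vehicle samples, those with triacsin C plus SR-3420 were below all other samples, and those with etomoxir plus SR-3420 were widely spread and overlapped etomoxir alone. The log2 fold change was 0.57 ± 0.252 (SE; edgeR, adjusted p = 0.203) without an inhibitor and -0.17 ± 0.205 (adjusted p = 0.586) with etomoxir, neither past the threshold, and it fell by 0.79 ± 0.207 (adjusted p = 0.00888) with triacsin C. The etomoxir value hung on single samples, becoming -0.51 (adjusted p = 0.029) without etomoxir plus SR-3420 sample 3 and 0.08 (adjusted p = 0.793) without sample 2 of that group.

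Tested directly, the response of Pfkfb3 to SR-3420 was lower with triacsin C than without an inhibitor by a log2 difference of -1.36 ± 0.326 (SE; edgeR, adjusted p = 0.0457), the only 1 of the 10 genes past the threshold in that comparison, where 1.24% of all tested genes had a higher and 1.27% a lower response. At an unadjusted p under 0.05 there were 3 of the 10 genes, Gpi1 (-0.82 ± 0.349) and Aldoa (-0.86 ± 0.328) besides Pfkfb3, where 16.7% of all tested genes had such a p. Of the 10 differences 1 was above 0, with a median of -0.51 beside -0.04 for all tested genes. A low median was not particular to the 10 genes. Of 20 other tested glycolytic enzymes 0 were above 0, with a median of -0.47. The medians were -0.575 for 16 genes of lactate and pyruvate fate and -0.73 for 8 of the pentose phosphate pathway. Of 10 other hexose transport genes 6 were above 0, with a median of 0.12. The Pfkfb3 call was lost when any single sample of the 4 groups was left out, with an adjusted p from 0.0813 to 0.226 and a difference from -1.44 to -1.29, and with DESeq2 size factors (adjusted p = 0.0535), total counts (adjusted p = 0.067) or no filter on low counts (adjusted p = 0.0809). The call was kept by DESeq2, with only the compared groups in the fit and with at least 10 counts required in every sample. With a block on the replicate number it was kept as well, and Gpi1, Pfkl and Aldoa then passed too. By group mean the order of Pfkfb3 was SR-3420 (405 ± 1.63 CPM, SD, n = 2), etomoxir (354 ± 17.6, n = 3), etomoxir plus SR-3420 (314 ± 125, n = 3), vehicle (272 ± 20.3, n = 2), triacsin C (223 ± 2.16, n = 3) and triacsin C plus SR-3420 (129 ± 2.6, n = 3), and only etomoxir plus SR-3420 did not differ from its neighbours beyond the spread. The listed start of Pfkfb3 lies upstream of the gene's end in GENCODE vM1, and the window before it, chr2:11475557-11475806 on the minus strand, held 1 ACGTG.
Pfkfb3: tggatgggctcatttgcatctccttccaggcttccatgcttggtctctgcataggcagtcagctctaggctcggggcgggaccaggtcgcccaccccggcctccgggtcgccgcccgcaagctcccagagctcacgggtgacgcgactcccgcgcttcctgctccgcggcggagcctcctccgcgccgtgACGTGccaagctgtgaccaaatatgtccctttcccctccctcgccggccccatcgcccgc

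Aldoa encodes aldolase A, which splits fructose 1,6-bisphosphate, and is listed as NM_001177308 at chr7:133938748-133943961 on the minus strand (counted length 1461, 10 exons). It spanned 1143 to 1645 CPM in vehicle and 1752 to 2141 with SR-3420. With triacsin C it spanned 1732 to 2213 CPM without SR-3420 and 1251 to 1579.5 with it, and with etomoxir 854 to 1336 without and 1043 to 1510.1 with it. In single samples SR-3420 was above vehicle, below triacsin C alone, and overlapped etomoxir alone. The log2 fold changes were 0.48 ± 0.254 (SE; edgeR, adjusted p = 0.294), -0.38 ± 0.207 (adjusted p = 0.169) and 0.16 ± 0.207 (adjusted p = 0.635) in that order, none past the threshold. With single samples left out they ran from 0.25 to 0.77, from -0.45 to -0.26 and from -0.01 to 0.30. A block on the replicate number in edgeR made the triacsin C value pass (-0.39, adjusted p = 0.0371).

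Pgk1 encodes phosphoglycerate kinase 1, the first ATP-making step, and is listed as NM_008828 at chrX:103382439-103399038 on the plus strand (counted length 1825, 11 exons). It was measured at 30.4 and 35.7 CPM in vehicle and at 42.2 and 66.7 with SR-3420. In triacsin C samples it stood at 37.4, 40.3 and 41.3 CPM, and at 54.6, 58.4 and 73.3 when SR-3420 was added. With etomoxir it stood at 25.5, 31.6 and 26.8 CPM, and at 47.3, 56.6 and 64.8 when SR-3420 was added. Every sample with SR-3420 was above every sample without it. The log2 fold change was 0.72 ± 0.224 (SE; edgeR, adjusted p = 0.0699) without an inhibitor, which missed the threshold and passed by DESeq2 (adjusted p = 0.0293) and without SR-3420 sample 1 (1.01, adjusted p = 0.0326), while without SR-3420 sample 3 it was 0.36 (adjusted p = 0.385). It was 0.64 ± 0.182 (adjusted p = 0.0137) with triacsin C, where the call was lost without triacsin C plus SR-3420 sample 3 (0.51, adjusted p = 0.0654), and 1.01 ± 0.184 (adjusted p = 0.00159) with etomoxir. A block on the replicate number in edgeR made the value without an inhibitor pass (0.81, adjusted p = 0.00264). The window before Pgk1, chrX:103382189-103382438 on the plus strand, held ACGTG at 2 places.
Pgk1: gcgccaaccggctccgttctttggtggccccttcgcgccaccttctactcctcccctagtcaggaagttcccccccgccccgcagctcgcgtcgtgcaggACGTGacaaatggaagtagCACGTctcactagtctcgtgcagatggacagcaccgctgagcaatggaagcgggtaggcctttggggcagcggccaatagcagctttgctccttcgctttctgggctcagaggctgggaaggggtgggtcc

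Eno1, enolase 1, is listed as NM_023119 at chr4:149611306-149622982 on the plus strand (12 exons), and on its short counted length the 16 samples spanned 2.24 to 5.25 CPM. Groups with and without SR-3420 overlapped in every pairing. Its log2 fold changes were 0.30 ± 0.365 (SE; edgeR, adjusted p = 0.694), 0.32 ± 0.301 (adjusted p = 0.437) and 0.32 ± 0.302 (adjusted p = 0.478) for no inhibitor, triacsin C and etomoxir, none past the threshold. Leaving out single samples gave -0.06 (without vehicle sample 3) to 0.83 (without vehicle sample 2), 0.20 to 0.53 and 0.15 to 0.67.

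Ldha encodes the A subunit of lactate dehydrogenase, which makes lactate from pyruvate, and is listed as NM_010699 at chr7:54101174-54110997 on the plus strand (counted length 1623, 8 exons). It was measured at 756 and 515 CPM in vehicle and at 1268 and 1127 with SR-3420. With triacsin C it stood at 711 and 935 and 796 CPM, and at 1040.3, 1050.3 and 877 when SR-3420 was added. With etomoxir it stood at 549 and 506 and 344 CPM, and at 959, 821 and 766 when SR-3420 was added. The groups did not overlap without an inhibitor or with etomoxir, SR-3420 being higher, and overlapped with triacsin C. The log2 fold change was 0.91 ± 0.238 (SE; edgeR, adjusted p = 0.0341) without an inhibitor, 0.28 ± 0.193 (adjusted p = 0.274) with triacsin C and 0.86 ± 0.194 (adjusted p = 0.00556) with etomoxir. The call without an inhibitor was lost without vehicle sample 3 (adjusted p = 0.255), SR-3420 sample 1 (adjusted p = 0.176) or SR-3420 sample 3 (adjusted p = 0.0739), and with only the compared groups in the fit both that call (adjusted p = 0.235) and the etomoxir call (adjusted p = 0.0515) were lost. The window before Ldha, chr7:54100924-54101173 on the plus strand, held 5 matches to ACGTG, 4 of them in 2 copies of CACGTG.
Ldha: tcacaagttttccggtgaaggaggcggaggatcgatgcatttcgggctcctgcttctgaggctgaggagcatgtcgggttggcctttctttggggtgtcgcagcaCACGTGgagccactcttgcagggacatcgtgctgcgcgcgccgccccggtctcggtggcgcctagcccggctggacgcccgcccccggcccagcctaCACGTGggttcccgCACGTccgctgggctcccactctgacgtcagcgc

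**Figure D2:**
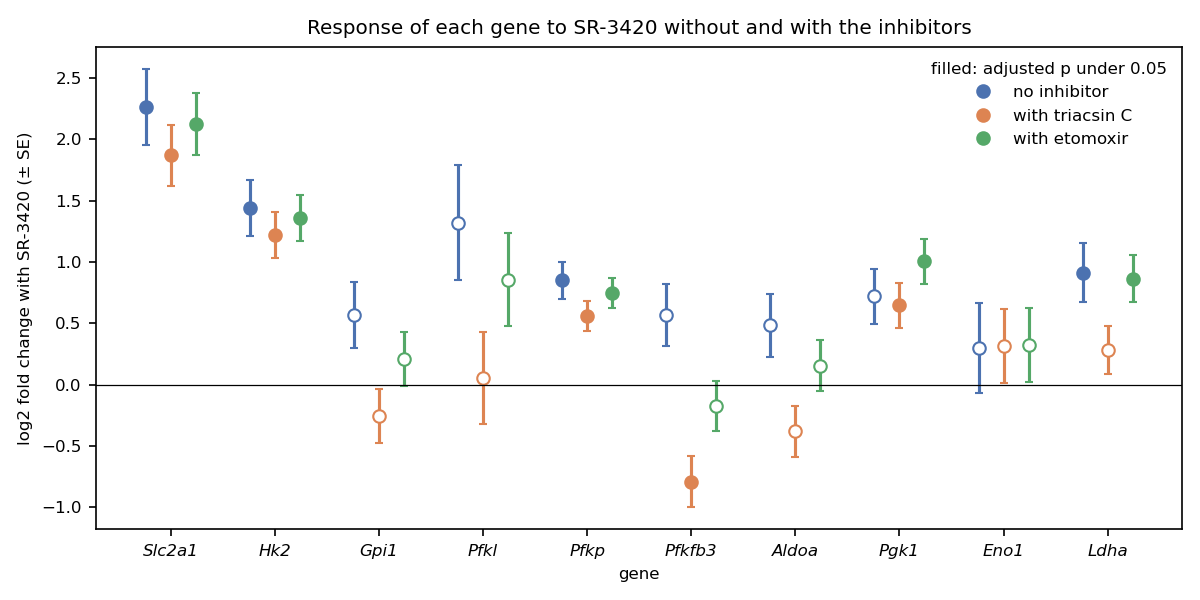
Log2 fold change with SR-3420 of each of the 10 genes, with its standard error, without an inhibitor (blue), with triacsin C (orange) and with etomoxir (green). Filled points passed an adjusted p under 0.05 in edgeR. Slc2a1, Hk2 and Pfkp are filled in all 3 conditions, and Pfkfb3 with triacsin C is the only filled point below 0.

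Each inhibitor was also compared with vehicle in the absence of SR-3420. For triacsin C against vehicle edgeR called 0 of the 10 genes, with 0 at an unadjusted p under 0.05 (24.3% of all tested genes) and 0 by DESeq2, where 4.77% of all tested genes rose and 6.94% fell. The median log2 fold change of the 10 genes was 0.28 beside 0.07 for all tested genes, and the values ran from -0.29 ± 0.228 (SE) for Pfkfb3 to 0.45 ± 0.234 for Aldoa. In single samples, Gpi1, Aldoa and Pgk1 were higher in each of the 3 samples with triacsin C than in either vehicle sample, and Pfkfb3 was lower, 3 and 1 of the 10, where 24.4% of all tested genes were higher in every sample and 18.9% lower, so these counts lay near those of all genes. Leaving out vehicle sample 2 or 3 moved the Aldoa value to 0.74 or 0.21. Slc2a1 then gave 0.77 or 0.13, Ldha 0.65 or 0.10 and Pfkl 0.76 or -0.07, while Pgk1 moved the other way, to 0.15 or 0.38. The median of the 10 genes thus also depended on single vehicle samples. For etomoxir against vehicle edgeR likewise called 0 of the 10 genes, with 0 at an unadjusted p under 0.05 (2.21% of all tested genes) and 0 by DESeq2, where 0.0156% of all tested genes rose and 0.00782% fell. The median was -0.23 beside 0.01 for all tested genes, with values from -0.47 ± 0.419 for Pfkl to 0.38 ± 0.232 for Pfkfb3, whose 3 etomoxir samples all lay above the vehicle samples, 1 of the 10 genes, where 4.54% of all tested genes were higher in every sample and 5.19% lower. The Pfkl value became 0.004 without vehicle sample 2 and -0.83 without vehicle sample 3. Slc2a1 then gave 0.34 and -0.30, Gpi1 0.13 and -0.47 and Eno1 0.23 and -0.66, while Pgk1 moved the other way, to -0.35 and -0.12. This median thus also depended on single vehicle samples. The vehicle samples enter both of these comparisons and also that of SR-3420 with vehicle.

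For the difference between the response with etomoxir and that without an inhibitor, edgeR called 0 of the 10 genes, with 1 at an unadjusted p under 0.05 (Pfkfb3, -0.74 ± 0.325; 307 of all tested genes) and 0 by DESeq2, and 0% of all tested genes passed in either direction (9 genes by DESeq2). Of the 10 differences 2 were above 0, with a median of -0.12 beside -0.0015 for all tested genes. For the difference between triacsin C and etomoxir edgeR called 0 of the 10 genes, with 0 at an unadjusted p under 0.05 (12.5% of all tested genes) and 0 by DESeq2, where 1.52% of all tested genes had a higher and 0.774% a lower response with triacsin C. Of 20 other tested glycolytic enzymes, 6 had a difference above 0 there, with a median of -0.37. Of the 10 genes 0 had a difference above 0, with a median of -0.41 beside -0.06 for all tested genes. Values there included -0.62 ± 0.291 (SE) for Pfkfb3 (adjusted p = 0.409) and -0.58 ± 0.272 for Ldha (adjusted p = 0.406), and the Pfkfb3 value became -0.87 (adjusted p = 0.0472) without etomoxir plus SR-3420 sample 2 and -0.28 (adjusted p = 0.549) without sample 3 of that group. For Slc2a1 the differences of response were -0.40 ± 0.382 for triacsin C minus no inhibitor, -0.14 ± 0.382 for etomoxir minus no inhibitor and -0.26 ± 0.342 for triacsin C minus etomoxir, with 95% intervals from -1.22 to 0.43, from -0.96 to 0.69 and from -0.99 to 0.48. For Hk2 they were -0.22 ± 0.288, -0.08 ± 0.288 and -0.14 ± 0.258, with 95% intervals from -0.84 to 0.40, from -0.70 to 0.54 and from -0.69 to 0.42. Over single samples left out, the Slc2a1 differences ran from -0.75 to -0.11, from -0.50 to 0.15 and from -0.46 to -0.06, and those of Hk2 from -0.45 to 0.06, from -0.31 to 0.20 and from -0.28 to -0.01. Thus a smaller or larger response of these genes under an inhibitor was not detected, within those intervals. The calls of Ldha without triacsin C but not with it did not carry a tested difference either (-0.63 ± 0.305, adjusted p = 0.321, from -0.93 to -0.38 over leave-outs).

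Shares within gene families, taken per kilobase within each sample, do not depend on the scaling between samples. Of the summed level of the transporters Slc2a1, Slc2a3 and Slc2a4, Slc2a1 made up 54.8 ± 1.73% in vehicle (SD, n = 2) and 87.5 ± 1.82% with SR-3420 (n = 2). Its share was 70.4 ± 1.83% with triacsin C and 92.1 ± 1.23% with triacsin C plus SR-3420, and 63.6 ± 5.3% with etomoxir and 90.5 ± 2.7% with etomoxir plus SR-3420 (n = 3 each). The share of Slc2a4, the insulin-recruited transporter GLUT4, was 44.4 ± 1.75% in vehicle and 11.6 ± 1.51% with SR-3420. It was 29 ± 1.73% with triacsin C and 7.01 ± 1.05% with triacsin C plus SR-3420, its lowest group mean. With etomoxir it was 35.3 ± 5.06%, and 8.17 ± 2.44% with etomoxir plus SR-3420. All samples with SR-3420 had a higher Slc2a1 share than all samples without it. Ldha made up 88.9 ± 0.615% of Ldha and Ldhb in vehicle and 94.3 ± 0.856% with SR-3420, against 90.6 ± 0.05% and 95.6 ± 0.156% with triacsin C and 87.4 ± 0.961% and 95.3 ± 0.69% with etomoxir. Ldhb has 1 near-identical copy elsewhere, covering 98.5% of its transcript, so its level is less certain.

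In other families the shares changed less or unevenly. Hk2 made up 56.1 ± 0.318% of Hk1 and Hk2 in vehicle and 57.6 ± 1.38% with SR-3420 (n = 2 each), 46.3 ± 3.38% with triacsin C and 52.7 ± 2.37% when SR-3420 was added, with no overlap of samples in either pairing, and 54.6 ± 3.83% with etomoxir and 55.9 ± 6.72% when SR-3420 was added, with overlap (n = 3 each). Pfkl made up 78 ± 3.16% of the phosphofructokinases Pfkl, Pfkm and Pfkp in vehicle and 89.1 ± 3.4% with SR-3420, 82.9 ± 3.05% with triacsin C and 84.5 ± 1.67% when SR-3420 was added, where samples overlapped, and 73.5 ± 4.54% with etomoxir and 84.1 ± 3.11% when SR-3420 was added, while Pfkp stayed between 4.44% and 6.9% by group mean. Pfkfb3 made up 63.4 ± 0.721% of Pfkfb1 to Pfkfb4 in vehicle, 78.5 ± 0.0141% with SR-3420, 71.8 ± 0.834% with etomoxir and 80.9 ± 6.35% with etomoxir plus SR-3420. Under triacsin C the share went the other way, from 70.2 ± 1.23% without SR-3420 to 66.7 ± 0.452% with it, and those samples did not overlap.

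**Figure D3:**
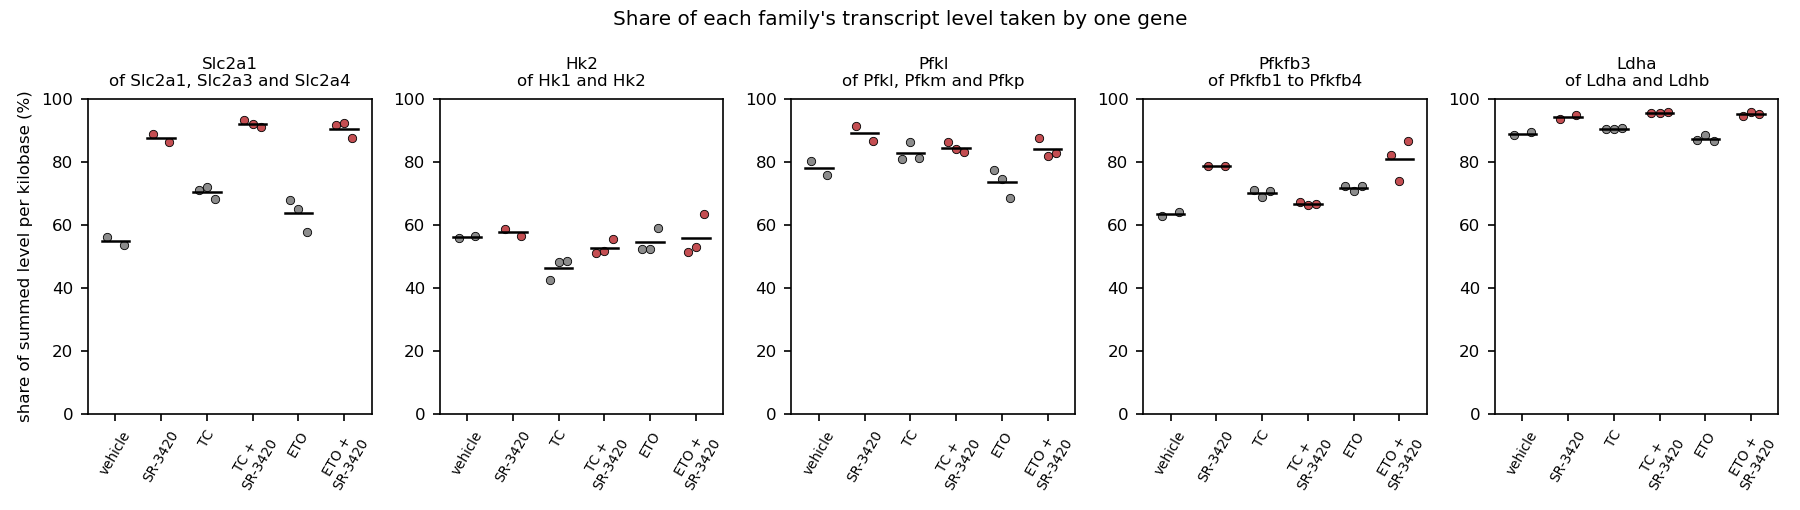
Share of a family's summed level per kilobase taken by 1 gene, in percent, in each of the 16 samples by treatment group, red with SR-3420 and grey without. Lines are group means. Slc2a1 takes at most 71.9% of its family without SR-3420 and at least 86.2% with it.

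Other genes of the pathway were taken from lists, and the shares called over all tested genes, given above, are turned below into the number of genes they come to in a list of that size. The lists too were chosen with earlier results of these data known, so these counts are a description only. Of 20 tested other glycolytic enzymes, 3 rose and 1 fell with SR-3420 alone, 2 rose and 8 fell with triacsin C present, and 3 rose and 5 fell with etomoxir present, with median log2 fold changes of -0.13, -0.43 and -0.17. The shares of all genes come to 0.9 risen and 0.6 fallen, 3.5 and 3.9, and 2.5 and 2.6 of 20. Among them Hk1, the other main hexokinase, rose by 1.34 ± 0.312, 0.87 ± 0.252 and 1.28 ± 0.255 (SE; edgeR, adjusted p = 0.02, 0.0159 and 0.0027), and the enolase gene Eno2 by 1.22 ± 0.223, 0.75 ± 0.178 and 1.55 ± 0.182 (adjusted p = 0.00507, 0.00512 and 7.5e-05). Gapdh, of which 45 near-identical copies cover 88.2% of the transcript, gave 1.14, 0.17 (from -0.05 to 0.34 over leave-outs) and 0.75, and Pkm, pyruvate kinase, gave 1.15, 0.39 and 0.88, with no call for either. DESeq2 called Gapdh (adjusted p = 0.036) and Pkm (0.0447) without an inhibitor and Pkm (0.0328) with etomoxir, and with etomoxir edgeR called Gapdh (0.0322) and Pkm (0.0405) once etomoxir sample 1 was left out, and Pkm without etomoxir plus SR-3420 sample 3 (0.0354), while without etomoxir plus SR-3420 sample 1 the values were 0.44 and 0.61 (adjusted p = 0.302 and 0.208). Without an inhibitor they were 0.70 and 0.71 (adjusted p = 0.501 and 0.548) once SR-3420 sample 1 was left out. Pgam2, the muscle phosphoglycerate mutase, fell by 2.10 ± 0.297 with triacsin C present (adjusted p = 0.000138), from 16.9 CPM with triacsin C to 3.92 with triacsin C plus SR-3420 (n = 3 each), beside 5.06 in vehicle (n = 2), and Pfkfb1, which acts on the same metabolite as Pfkfb3, fell by 1.27 ± 0.121 with etomoxir present (adjusted p = 1.58e-05). The call of Hk1 without an inhibitor was lost on leaving out vehicle sample 2 (adjusted p = 0.0637), vehicle sample 3 (0.17) or SR-3420 sample 1 (0.14), and that with triacsin C without triacsin C sample 3 (0.0636) or triacsin C plus SR-3420 sample 1 (0.0559). Eno2 lost its call without an inhibitor when vehicle sample 3 was left out (adjusted p = 0.0645).

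Of 10 tested genes of hexose transport other than Slc2a1, 2 rose with SR-3420 alone, 3 rose and 2 fell with triacsin C present, and 4 rose and 1 fell with etomoxir present, with medians of 0.30, 0.42 and 0.32, where the shares of all genes come to 0.5 risen and 0.3 fallen, 1.7 and 2, and 1.2 and 1.3. Slc2a3 (GLUT3), a scarce transcript here, rose by 1.48 ± 0.218, 1.81 ± 0.183 and 1.88 ± 0.177 (SE; edgeR, adjusted p = 0.0013, 1.37e-05 and 1.56e-05), and Txnip, whose product restrains glucose uptake, by 0.84 ± 0.191, 0.75 ± 0.155 and 0.82 ± 0.156 (adjusted p = 0.0176, 0.00217 and 0.00199). Slc2a4 gave -0.35 without an inhibitor, not past the threshold (from -0.58 to -0.08 over leave-outs), and fell by 0.58 ± 0.162 (adjusted p = 0.0134) with triacsin C and by 0.49 ± 0.161 (adjusted p = 0.04) with etomoxir. Slc2a4 lost its call with triacsin C without triacsin C sample 2 (adjusted p = 0.0571) or triacsin C plus SR-3420 sample 1 (0.0524), and with etomoxir without etomoxir sample 1 (0.109) or 2 (0.0957) or etomoxir plus SR-3420 sample 2 (0.168). Txnip lost its call without an inhibitor when vehicle sample 2 (adjusted p = 0.0998), vehicle sample 3 (0.114) or SR-3420 sample 1 (0.134) was left out.

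Beyond glycolysis, 16 tested genes of lactate and pyruvate fate gave 2 that rose with SR-3420 alone, 3 that rose and 10 that fell with triacsin C present and 3 that rose and 8 that fell with etomoxir present, with medians of -0.37, -0.78 and -0.57. With SR-3420 alone, DESeq2 called 2 risen and 4 fallen. By edgeR 9 of the 16 had an unadjusted p under 0.05 there, as had 21.8% of all tested genes. For 16 genes the shares of all genes come to 0.8 risen and 0.4 fallen, 2.8 and 3.1, and 2 and 2. Slc16a3, the lactate exporter MCT4, rose by 2.26 ± 0.295, 1.48 ± 0.233 and 2.81 ± 0.248 (SE; edgeR, adjusted p = 0.000633, 0.000306 and 7.66e-06). Pdk4, a kinase that shuts pyruvate dehydrogenase, rose by 2.26 ± 0.21, 1.19 ± 0.166 and 1.61 ± 0.167 (adjusted p = 4.28e-05, 0.000124 and 3.05e-05). The mitochondrial pyruvate carrier gene Mpc1 gave -0.40 without an inhibitor, not past the threshold, and fell by 1.33 ± 0.128 with triacsin C (adjusted p = 1.05e-05) and by 0.82 ± 0.126 with etomoxir (adjusted p = 0.00048).

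Of 8 genes of the pentose phosphate pathway edgeR called 0 with SR-3420 alone (2 at an unadjusted p under 0.05, 1 by DESeq2), 5 fell with triacsin C present and 3 with etomoxir present, with medians of -0.23, -0.88 and -0.49, where the shares of all genes come to 0.2, 1.6 and 1 fallen. Taldo1, transaldolase, fell by 1.17 ± 0.154 (SE; adjusted p = 8.46e-05) and by 0.80 ± 0.153 (adjusted p = 0.00221) in those comparisons. Of 16 glycogen genes, 1 rose with SR-3420 alone, 2 rose and 4 fell with triacsin C present, and 2 rose and 2 fell with etomoxir present, with medians of -0.06, -0.27 and -0.24, counts near the 0.8 risen and 0.4 fallen, 2.8 and 3.1, and 2 and 2 that the shares of all genes come to. Ppp1r3c, a glycogen-targeting subunit of protein phosphatase 1, fell by 3.44 ± 0.383 (adjusted p = 2.5e-05) with triacsin C present, from 87.5 CPM with triacsin C to 8.08 with triacsin C plus SR-3420 (n = 3 each), beside 29.7 in vehicle (n = 2). It gave -0.11 (from -0.27 to 0.04 over leave-outs) and -0.27 in the other comparisons, the latter becoming -1.01 (adjusted p = 0.00484) without etomoxir plus SR-3420 sample 3 and 0.06 (adjusted p = 0.936) without sample 2 of that group. Triacsin C alone against vehicle gave 1.73 ± 0.337 for Pgam2 (adjusted p = 0.00402), a call lost without vehicle sample 3 (0.0678), and 1.56 ± 0.405 for Ppp1r3c (adjusted p = 0.0229), a call lost without either vehicle sample (0.141 and 0.132) or triacsin C sample 3 (0.0682), so the triacsin C groups that served as controls stood above vehicle in both genes. Of 3 tested gluconeogenesis genes edgeR called 0 in each of the 3 comparisons, with 1, 0 and 0 at an unadjusted p under 0.05 (21.8%, 46.5% and 37.2% of all tested genes) and 1, 0 and 0 by DESeq2.

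Of 20 genes known as hypoxia-inducible and outside glycolysis, 13 rose with SR-3420 alone, 12 rose and 1 fell with triacsin C present and 16 rose with etomoxir present, with median log2 fold changes of 1.38, 0.87 and 1.45, where the shares of all genes come to 0.9, 3.5 and 2.5 risen. Hilpda, whose product inhibits adipose triglyceride lipase, rose by 2.73 ± 0.203, 2.00 ± 0.159 and 3.27 ± 0.169 (SE; edgeR, adjusted p = 7.58e-06, 3.07e-06 and 1.58e-07), and Vegfa by 0.87 ± 0.134, 0.79 ± 0.109 and 1.26 ± 0.11 (adjusted p = 0.00171, 0.000115 and 7.34e-06). Egln3, an oxygen-sensing prolyl hydroxylase, rose by 2.46 ± 0.321 and 2.08 ± 0.26 without an inhibitor and with etomoxir (adjusted p = 0.000633 and 0.00012) and gave -0.50 with triacsin C, where its control stood at 102.2 CPM beside 52.7 in vehicle. Over single samples left out, the difference of response of Egln3 ran from -3.053 to -2.882 for triacsin C minus no inhibitor. For triacsin C minus etomoxir it ran from -2.853 to -2.145. Of 14 regulators of glycolysis, 1 rose and 1 fell with SR-3420 alone, 3 rose and 2 fell with triacsin C present and 2 rose and 1 fell with etomoxir present, with medians of 0.06, 0.03 and -0.12, again near the 0.7 risen and 0.4 fallen, 2.4 and 2.8, and 1.7 and 1.8 from the shares of all genes. Myc rose by 2.04 ± 0.194, 1.89 ± 0.157 and 2.32 ± 0.16 (adjusted p = 5.37e-05, 3.98e-06 and 1.49e-06), and Epas1, which encodes HIF-2 alpha, fell by 0.98 ± 0.188, by 1.38 ± 0.157 and by 1.43 ± 0.156 (adjusted p = 0.00705, 2.95e-05 and 4.13e-05). Without vehicle sample 2 or SR-3420 sample 3 the call of Epas1 in the absence of an inhibitor was lost (adjusted p = 0.0794 and 0.071). Hif1a gave 0.40 (from -0.01 to 0.73 over leave-outs), 0.76 (from 0.51 to 0.93) and 0.63, with no call, though the value with etomoxir passed without etomoxir sample 3 (1.04, adjusted p = 0.0496) and was 0.32 (adjusted p = 0.573) without etomoxir plus SR-3420 sample 3. Fitted on only the vehicle and SR-3420 samples, the calls without an inhibitor of Hk1, Eno2, Slc2a3, Txnip, Vegfa and Epas1 were lost (adjusted p from 0.116 for Hk1 to 0.213 for Txnip).

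**Figure D4:**
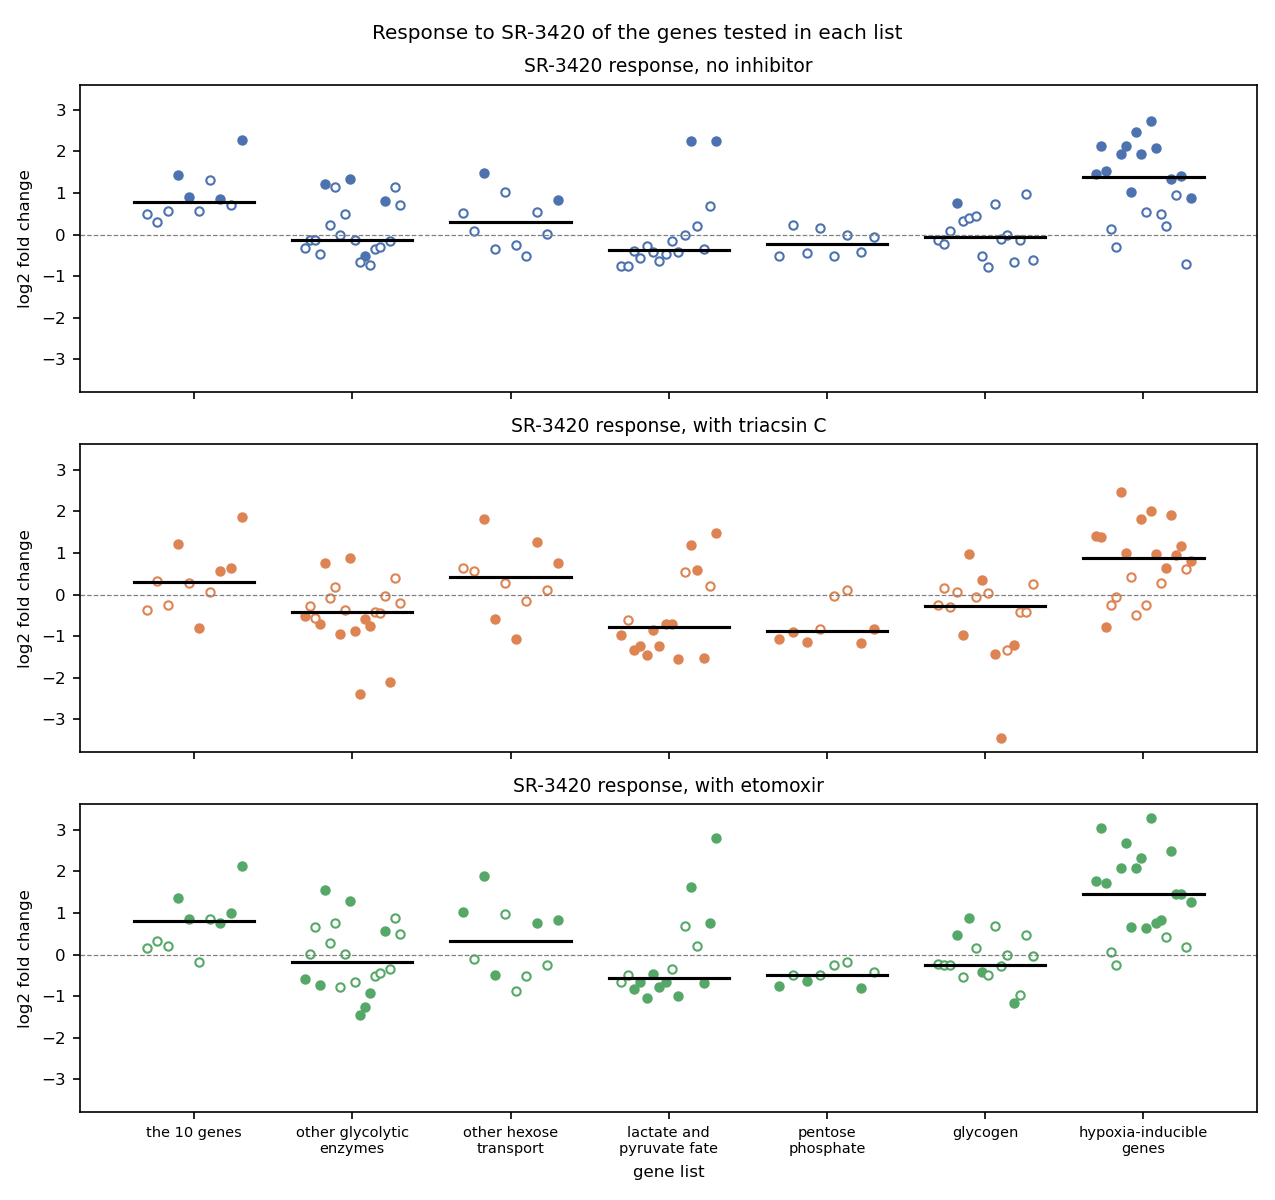
Log2 fold change with SR-3420 of each tested gene of 7 lists, in 3 panels: no inhibitor, triacsin C, etomoxir. Each point is a gene, filled where the adjusted p was under 0.05 in edgeR, and each line is the list's median. The medians of the 10 genes lie at 0.79, 0.30 and 0.80.

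The genes whose log2 levels followed each of the 10 most closely over the 16 samples, by Pearson r, are given as a description. Slc2a1 was followed by Nr4a1 (0.992), Stk40 (0.991) and B4galt5 (0.99), and Hk2 by Prr5l (0.964), Elmsan1 (0.958) and Uaca (0.956). Gpi1 was followed by Bsg (0.979), Aldoa (0.975) and Tbrg4 (0.971), and Aldoa in turn by Gpi1 (0.975), Plod1 (0.948) and Bsg (0.946), so that these enzyme genes were among each other's closest. Pfkl was followed by Mif (0.957), Mob3a (0.953) and Crtc2 (0.951), and Pfkp by P4ha2 (0.964), Ppme1 (0.963) and Jmjd6 (0.963). Pfkfb3 was followed by Ppara (0.955), Mxd1 (0.939) and Dlc1 (0.938), and Pgk1 by P4ha1 (0.973), Ak4 (0.963) and Btg2 (0.953). The closest to Eno1, the gene with the fewest counts, were Polr2c (0.887), Fam222b (0.883) and Eif3h (0.876), and to Ldha they were Bri3bp (0.947), Surf4 (0.94) and Anxa2 (0.939). The 16 points of each r fall in the same 6 treatment groups.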

How the data were processed

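Gene counts of RNA-seq from 16 samples in 6 groups were used as the authors deposited them, without normalization. The authors aligned reads with STAR 2.4.2a to mm9, kept 1 read per position and length with HOMER and counted with iRNA-seq, whose use of the strand is not stated. The deposited table also gives, as an other unit, the bases over which each gene was counted. With edgeR 4.0.16 in R 4.3.3 (limma 3.58.1), counts were filtered by filterByExpr (12786 of 20295 genes), scaled by TMM and fitted with 1 mean per group, and 8 contrasts were tested by quasi-likelihood, the p-values adjusted after Benjamini and Hochberg over every gene tested, and called under 0.05 with no fold minimum. SE is the size of the log2 fold change over the root of F. DESeq2 1.42.0, other scalings, filters, a replicate block, subsets and leave-outs were alternatives. Genomic copies were found with minimap2 2.31-r1302, exons are from GENCODE vM1, and Python 3.11.15 with matplotlib 3.10.9 drew the plots. Of the lists (other glycolytic enzymes, hexose transport, lactate and pyruvate fate, pentose phosphate, glycogen, gluconeogenesis, hypoxia-inducible genes, regulators, cell type markers), genes that passed a test or were abundant could be named. The genes nearest each of the 10 were the 3 with the highest Pearson r of log2(CPM + 1) among those with a mean of at least 10 CPM. The 10 genes and the lists were chosen with earlier results of these data known. The edgeR tests were checked for some of the contrasts on simulated counts, drawn with no effect of the replicate number.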

Additional observations from a re-analysis of the deposited data

Results flagged for a closer look

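The response to SR-3420 of Pfkfb3 differed between cells with triacsin C and cells without an inhibitor. The difference of log2 fold changes was -1.36 ± 0.326 (SE; edgeR, adjusted p = 0.0457), from 0.57 without an inhibitor to -0.79 with triacsin C. The call did not survive leaving out any 1 of the 10 samples of these groups (adjusted p from 0.0813 to 0.226), while all of those differences stayed between -1.44 and -1.29.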

How the results depend on the processing

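Of 1140 values of the 10 genes under alternatives, 1105 kept their side of the threshold, 22 lost a call, 13 gained one, 0 turned a called direction, and 68 values without a call changed sign. Slc2a1 passed in the 3 SR-3420 comparisons under every alternative run. Counts below follow the order SR-3420 against vehicle, the same with triacsin C and with etomoxir, triacsin C and etomoxir against vehicle, then the response differences triacsin C minus none, etomoxir minus none and triacsin C minus etomoxir.

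Requiring also a log2 fold change of at least 1 left 2, 2 and 3 of the 10 genes in the SR-3420 comparisons and 430, 1893 and 1136 of all genes, 705 for triacsin C alone and 178 for triacsin C minus etomoxir. For triacsin C minus none, 0 of the 10 genes passed by edgeR with DESeq2 size factors, total counts (chosen after the data were seen, moving the median of all genes by 0.13) or no filter (163 of all genes), against 3 at an unadjusted p under 0.05 and 1 by DESeq2 in the unaltered setting. Blocking on the replicate number, 7 of the 10 genes passed for SR-3420 alone and 4 for triacsin C minus none, and all genes passing numbered 2438, 7185, 5776, 3072, 6, 1669, 3 and 1055. Same-numbered samples of different groups correlated from -0.275 to 0.8 (mean 0.385), 27 of 35 pairs over 0.1, and 10 of 16 samples correlated best with their own number. Differently numbered pairs had a mean of -0.19. Most pairs thus deviated together, but as not every pair did, the numbers were not taken to pair the samples. Whether a number marks 1 experiment is not stated. If it does, vehicle (2 and 3) and SR-3420 alone (1 and 3) share only number 3. Comparisons that use these groups would then be uneven by experiment, which the unblocked fit does not take into account. DESeq2 gave 1569 genes for SR-3420 alone, 17 for etomoxir alone and 809, 9 and 656 for the 3 differences. With only the compared groups in the fit, 1 of the 10 genes and 46 of all genes passed for SR-3420 alone, 1205 genes with etomoxir and 0 for etomoxir alone (17 by DESeq2 over all groups).

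Leaving out each sample in turn, with a lone sample assumed to vary like the other groups, gave 2 to 4, 4 to 5, 5 to 6, 0 to 0, 0 to 0, 0 to 0, 0 to 0 and 0 to 1 of the 10 genes, and 306 to 504, 3506 to 4056, 1989 to 3198, 702 to 1089, 0 to 3, 53 to 179, 0 to 0 and 145 to 262 of all genes. The lowest counts for SR-3420 alone (306) and triacsin C minus none (53) came without vehicle sample 3. The causes of these changes were not tested. Beyond these, calls of the 10 genes gained with the block were Gpi1 (adjusted p = 0.0435), Pfkl (0.00916) and Pgk1 (0.00264) with SR-3420 alone, Aldoa (-0.39, adjusted p = 0.0371) with triacsin C, Pfkl (0.00468) with etomoxir, and Gpi1, Pfkl and Aldoa in triacsin C minus none (0.0309, 0.0398 and 0.0344). Eno1 had the fewest counts of the 10 genes, 27 to 109. Without division by length, Hk2, Pfkfb3, Pgk1, Pfkp and Eno1 took places 6 to 10 in the order of levels.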
